A study of Mus musculus with 17 samples.

Results

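The genes described here are 50 genes of G2 and mitosis, the phases in which a cell that has copied its DNA prepares for division and then divides. They were chosen by name for their known roles, with earlier results of these data known. All 50 were found in both deposited tables of gene counts, among 78239 gene identifiers in the first table and 73212 in the second. All 50 passed the filter on low counts in both tables, in which 19137 and 20167 genes were tested. The data are bulk RNA-seq of pancreatic islets from 17 male mice. The first table holds Pax4 WT mice and Pax4 HH mice, in which both copies of Pax4 encode R200H, the mouse counterpart of R192H in the human protein. Each genotype was sampled after a standard chow diet (SCD) at 12 weeks of age and after 4 weeks of a high-fat diet (HFD) at 16 weeks, with 3 mice in each of the 4 groups, so that diet and age cannot be told apart. The second table holds 3 Pax4-BiKO mice, in which floxed Pax4 alleles were deleted with the tamoxifen-inducible Pdx1-CreERT2 transgene, and 2 Control mice. Both groups had tamoxifen between weeks 7 and 9 of age and the HFD from week 12 for 8 weeks, and were sampled at 20 weeks. Pdx1 drives this Cre in β cells, and it is also active in some other islet cells. The Control mice carried the floxed alleles without the Cre transgene, so that the transgene and the deletion cannot be told apart.

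Entry into mitosis is driven by the kinase CDK1 bound to cyclin A or cyclin B. The kinases of the Aurora and Polo families then act on centrosomes, spindle and kinetochores, and the anaphase-promoting complex (APC/C) destroys cyclin B and securin so that the chromosomes can part. Most of these genes are transcribed mainly in dividing cells and peak together late in the cycle, under the factors MYBL2 and FOXM1. Adult islet β cells rarely divide, and β cell division in young mice is known to rise on an HFD. In bulk islets, a gene of this kind reads out the number of dividing cells of every type that was present, and more dividing cells and more RNA per dividing cell cannot be told apart.

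The promoters of such genes are known for the CHR element (TTTGAA) and the CCAAT box (CCAAT). RefSeq windows of 300 bases (250 before and 50 after the start, GRCm38.p6) were matched by symbol for 42 of the 50 genes, in 44 windows. Searched on both strands, TTTGAA was in 31 of these 44 windows (70.5%) and in 17.9% of all 32851 windows. CCAAT was in 32 of 44 (72.7%) and in 37.4% of all windows, and at least 2 matches were found in 21 of 44 (47.7%) and 11.7%. Both motifs were in 28 of 44 (63.6%) and in 6.95% of all windows. The motifs can overlap at their ends and were counted separately. These shares are descriptions of letters in the windows and are not binding sites. The 150 bases before the start are shown for 6 genes on which the results below turn and that overlap no annotated exon there, 5′ to 3′ on the gene's strand, with matches to either motif in capitals. Top2a lies at chr11:99024190-99024339 (minus strand), Mki67 at chr7:135716380-135716529 (minus strand), Hmmr at chr11:40733438-40733587 (minus strand), Kif11 at chr19:37376232-37376381 (plus strand), Knstrn at chr2:118813853-118814002 (plus strand) and Spc25 at chr2:69206214-69206363 (minus strand).
Top2a: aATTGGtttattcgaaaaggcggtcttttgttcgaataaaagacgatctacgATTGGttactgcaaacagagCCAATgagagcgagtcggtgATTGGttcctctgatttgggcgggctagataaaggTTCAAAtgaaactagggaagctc
Mki67: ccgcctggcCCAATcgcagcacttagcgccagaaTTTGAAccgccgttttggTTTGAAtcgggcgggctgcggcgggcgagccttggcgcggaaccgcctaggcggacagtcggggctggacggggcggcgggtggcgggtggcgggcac
Hmmr: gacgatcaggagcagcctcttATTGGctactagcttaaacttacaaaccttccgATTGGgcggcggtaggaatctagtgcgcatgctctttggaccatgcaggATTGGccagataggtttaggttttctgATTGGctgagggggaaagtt
Kif11: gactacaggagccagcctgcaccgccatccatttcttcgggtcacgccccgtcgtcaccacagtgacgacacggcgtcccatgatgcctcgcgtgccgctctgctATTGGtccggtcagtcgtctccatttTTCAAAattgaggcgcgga
Knstrn: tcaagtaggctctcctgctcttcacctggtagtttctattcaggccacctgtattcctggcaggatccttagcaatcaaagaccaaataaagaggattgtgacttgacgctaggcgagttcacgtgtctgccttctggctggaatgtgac
Spc25: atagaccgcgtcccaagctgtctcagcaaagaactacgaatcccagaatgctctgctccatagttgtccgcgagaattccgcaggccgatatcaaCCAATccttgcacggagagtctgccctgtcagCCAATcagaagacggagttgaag
Top2a, Mki67 and Kif11 hold both motifs in this stretch. Hmmr holds 4 CCAAT matches and Spc25 holds 2, with no TTTGAA in these 150 bases. Knstrn holds neither motif in its window, and it was among the genes called higher below in Pax4 HH against WT islets on HFD.

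Library totals were 24268157 to 42679645 counts in the first table and 28618835 to 31887537 in the second. The members were measured on few of these counts. The median count of the 50 genes in 1 mouse was between 26 and 206.5, and 8 of the 850 gene-by-mouse values were 3 counts or fewer, the lowest being 1. Levels are given as CPM, counts divided by a library size that TMM had scaled to a shared middle of genes, and each table was scaled on its own, so that levels are compared only within a table. The 2 genes with most counts took 36.2% to 53.3% of the counts in the first table and 8.68% to 11.1% in the second. The TMM factor, which multiplies the library size, was 0.692 to 0.823 in HH mice on HFD, 0.89 to 1.11 in WT mice on HFD and 1.05 to 1.3 on SCD. Insulin, glucagon and somatostatin genes were present in every library, and so were acinar genes. Acinar cells make the digestive enzymes of the exocrine pancreas, and their RNA can come with islets during isolation. The summed CPM of 20 acinar genes was 15090 to 29690 in WT mice on SCD, 15350 to 21600 in HH mice on SCD, 18540 to 29080 in WT mice on HFD and 42960 to 112400 in HH mice on HFD. In the second table it was 27430 and 122000 in the Control mice and 19380 to 95850 in the Pax4-BiKO mice. These values are given again beside the results with which they move.

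Per kilobase of exon, the 50 genes covered a wide range within a group. In HH mice on HFD the group means ran from 0.124 to 61.2 CPM per kb with a median of 1.11, and in WT mice on HFD from 0.0397 to 41.5 with a median of 0.394. Mybl2 was the lowest member per kilobase in both of these groups. Spc25, a subunit of the NDC80 kinetochore complex, was the highest member per kilobase in all 6 groups. It is named here, with Hjurp and Pttg1, because its values were seen to stand apart. Its mean was 36.3 to 61.2 CPM per kb in the first table, where the next member after it was at 6.57 CPM per kb or lower. Spc25 lies at chr2:69193895-69206194 on the minus strand of GRCm38, and the start of G6pc2, which is expressed in β cells, lies 4879 bases beyond its 5′ end on the opposite strand. No annotated exon of another gene overlaps Spc25. Hjurp, the chaperone that loads the centromeric histone CENPA, and Pttg1, which encodes securin, were the next highest per kilobase in the WT mice of both diets.

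The first question was whether Pax4 HH and WT islets differed in these genes on SCD. No member was called, against 0% of all 19137 tested genes, where called means an adjusted p below 0.05 in edgeR's quasi-likelihood test and a log2 fold change beyond 0.5 in either direction. DESeq2 also called 0 of the 50, with 0.0993% called over all genes. Most members were slightly lower in HH mice. The fold change was above 0 for 6 of the 50, with 49.3% above 0 over all genes, and the median log2 fold change of the members was -0.30, with -0.004 over all genes. At an unadjusted p below 0.05, 1 member was lower (2.19% of all genes) and 0 were higher. That member was Cdca8, which encodes borealin of the chromosomal passenger complex (log2 fold change -1.30, SE 0.58, unadjusted p = 0.0438 and adjusted p = 1 in edgeR). Cdca3 (-0.74, SE 0.36) and Ncapg (-0.78, SE 0.38) had the next lowest unadjusted p, 0.0622 and 0.0625 in edgeR, both at an adjusted p of 1. The median of the members was -0.15 without replicate 3 of the WT mice, -0.17 without replicate 1 of the HH mice and -0.47 without replicate 2 of the WT mice, with 18, 17 and 4 above 0. B cell genes, which mark another dividing cell type, summed to 15.7 to 78.6 CPM in the WT mice and to 1.45 to 1.64 CPM in the HH mice on SCD. All 7 B cell genes were below 0 (median -5.03), each at an unadjusted p below 0.05 in edgeR (2.19% of all genes lower). Of these, 6 were lower without overlap (4.22% of all genes), 0 were called in edgeR and 2 were called lower by DESeq2. Macrophage genes were also below 0 in 12 of 12 (median -0.57), with 4 lower at an unadjusted p below 0.05, 0 called in edgeR and 1 in DESeq2, and they summed to 103 to 150 CPM in the WT mice and to 70.9 to 76.6 CPM in the HH mice. Stromal genes were below 0 in 10 of 10 (median -0.55), erythroid genes in 5 of 5 (median -1.35) and T cell genes in 4 of 4 (median -0.98). With the B cell or the macrophage level of each mouse as a covariate, 0 members were called as well.

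The levels of the main proliferation genes overlapped between genotypes on SCD. Mki67 was at 8.96, 7.59 and 12.0 CPM in the WT mice and at 5.06, 7.11 and 13.3 CPM in the HH mice. Top2a was at 11.2, 7.91 and 17.6 CPM in the WT mice and at 6.38, 9.63 and 13.7 CPM in the HH mice. Cdk1 was at 2.90, 2.71 and 4.32 CPM against 2.13, 2.58 and 3.09 CPM. In each of these at least 1 HH mouse lay below the WT range and at least 1 within or above it. Ccnb1 was at 2.12, 1.02 and 2.20 CPM in the WT mice and at 0.992, 1.90 and 1.15 CPM in the HH mice. Foxm1 was at 0.371, 0.268 and 0.290 CPM against 0.203, 0.605 and 0.573 CPM, and Mybl2 at 0.573, 0.349 and 0.145 CPM against 0.407, 0.211 and 0.420 CPM. All 3 overlapped as well, and the 2 HH mice with the most Foxm1 were above the WT mice.

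On HFD, the members were higher in HH than in WT islets nearly throughout. Of the 50, 14 were called higher and 0 lower, against 1.46% of all tested genes called higher and 0.820% called lower. The log2 fold change was above 0 for 49 of 50 (48.6% over all genes), its median was 1.62 (-0.014 over all genes), and 47 members were higher at an unadjusted p below 0.05 (8.91% over all genes). DESeq2 called 37 members higher, against 3.50% of all genes. For 46 members all 3 HH mice were above all 3 WT mice (13.0% over all genes), and for 45 the 3 HH mice on HFD were above each of the other 9 mice of the table (8.99% over all genes). The 5 members for which they were not were Pttg1, Bub1, Spc25, Foxm1 and Mybl2.

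**Figure D1:**
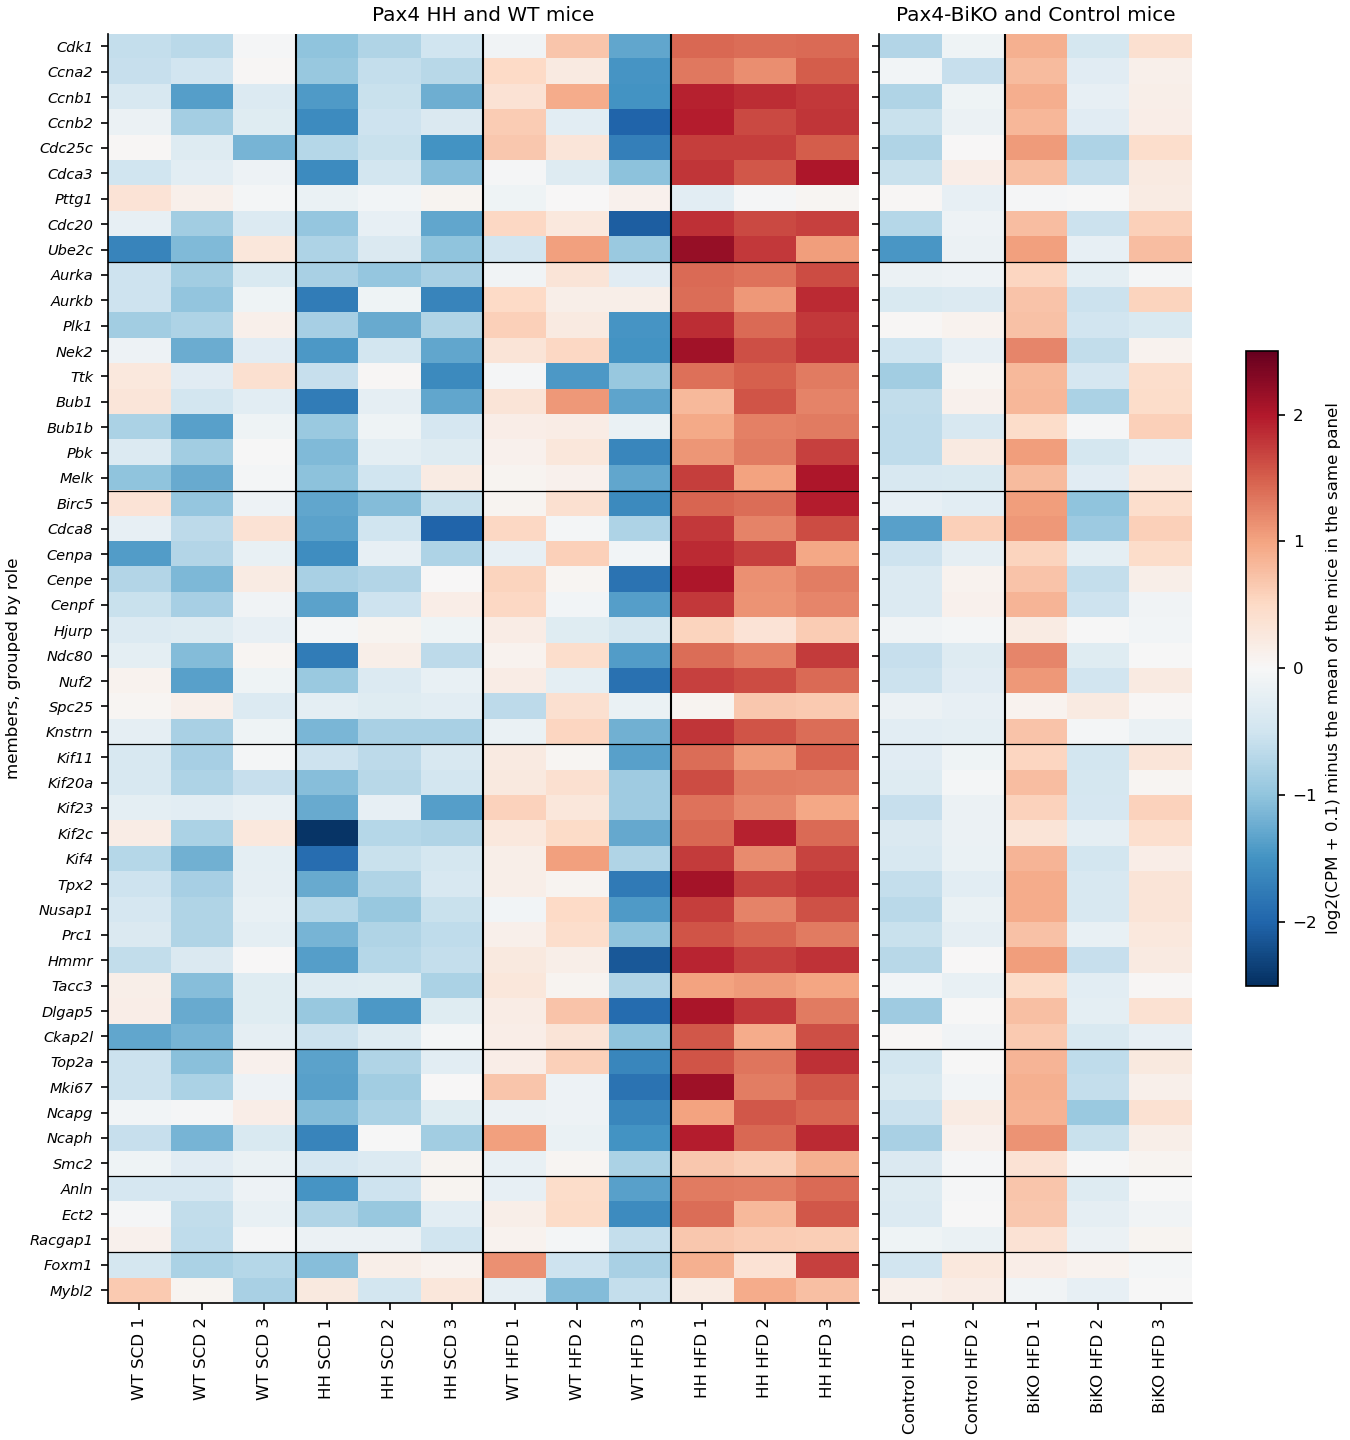
Each cell shows log2(CPM + 0.1) of 1 member (lines, grouped by role) in 1 mouse (columns), minus the mean of the mice in the same panel, with the 12 mice of the first table at left and the 5 of the second at right. The 3 HH mice on HFD are red in nearly every line, replicate 3 of the WT mice on HFD is blue in most, and Pttg1, Hjurp and Spc25 are pale.

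Among the cyclins and the APC/C genes, Cdk1, the kinase that starts mitosis, was at 4.16, 7.16 and 1.72 CPM in the WT mice on HFD and at 12.1, 11.8 and 11.9 CPM in the HH mice. Ccnb1, which encodes cyclin B1, was at 3.63, 5.46 and 0.938 CPM in the WT mice and at 10.9, 10.4 and 9.78 CPM in the HH mice. For both genes the groups did not overlap, and the WT mice spread far more than the HH mice. Neither was called in edgeR: Cdk1 had a log2 fold change of 1.46 (SE 0.37, adjusted p = 0.0574 in edgeR) and Ccnb1 of 1.64 (SE 0.47, adjusted p = 0.0865 in edgeR). DESeq2 called both, at adjusted p of 0.00364 for Cdk1 and 0.0105 for Ccnb1. Ccnb1, Ccnb2 and Kif4 have annotated pseudogene copies, between which the authors' counting could have split reads. The member of this role that was called in edgeR was Cdca3, a cell cycle gene named trigger of mitotic entry 1, at chr6:124829547-124833701 on the plus strand. Cdca3 was at 1.44, 1.16 and 0.677 CPM in the WT mice and at 5.37, 4.49 and 6.26 CPM in the HH mice on HFD, a log2 fold change of 2.30 (SE 0.36, adjusted p = 0.00639 in edgeR). The lowest HH mouse was thus above the highest WT mouse by a wide margin.

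Pttg1 differed from the rest of this role. It was at 4.45, 4.81 and 5.16 CPM in the WT mice and at 3.97, 4.70 and 4.93 CPM in the HH mice on HFD. The groups overlapped, and the log2 fold change was -0.08 (SE 0.18, adjusted p = 0.875 in edgeR), the lowest of the 50. Its 12 values in the first table ran from 3.97 to 6.06 CPM, and it was the member with the smallest ratio of highest to lowest group mean there, 4.54 to 5.32 CPM.

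Of the 9 mitotic kinase genes, 2 were called. Aurka, which encodes the centrosomal Aurora A kinase, was at 2.16, 2.90 and 1.88 CPM in the WT mice and at 6.30, 6.08 and 7.31 CPM in the HH mice, a log2 fold change of 1.51 (SE 0.23, adjusted p = 0.00639 in edgeR). It had the lowest p of the 50. Nek2, a centrosome kinase, was at 2.88, 3.31 and 0.755 CPM in the WT mice and at 10.2, 7.18 and 8.30 CPM in the HH mice (1.90, SE 0.46, adjusted p = 0.0495 in edgeR). In both genes every HH mouse was above every WT mouse. Ttk, the spindle checkpoint kinase, is named after its values were seen, since it had the largest log2 fold change of the 50, 2.37 (SE 0.58), but was not called at an adjusted p of 0.053 in edgeR. DESeq2 called Ttk (adjusted p = 0.00263). The role's log2 fold changes ran from 0.97 to 2.37.

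Of the 10 centromere and kinetochore genes, 3 were called. Knstrn, a spindle and kinetochore protein, was at 2.48, 4.09 and 1.17 CPM in the WT mice and at 9.88, 8.60 and 7.56 CPM in the HH mice (1.76, SE 0.35, adjusted p = 0.024 in edgeR). Nuf2, the partner of NDC80, rose by 2.10 (SE 0.51, adjusted p = 0.0491 in edgeR). Hjurp was at 28.8, 20.6 and 18.6 CPM in the WT mice and at 37.7, 32.1 and 39.7 CPM in the HH mice. Its difference was small, 0.69 (SE 0.16, adjusted p = 0.0384 in edgeR), and passed the test at a much higher level of counts. Spc25 was at 88.0, 184 and 124 CPM in the WT mice and at 146, 221 and 218 CPM in the HH mice on HFD. Here the groups overlapped, and the log2 fold change of 0.56 (SE 0.23, adjusted p = 0.246 in edgeR) was the lowest of this role.

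The kinesin and spindle genes held the most calls, 6 of 12. Tpx2, which activates Aurora A on the spindle, was at 2.85, 2.69 and 0.677 CPM in the WT mice and at 11.2, 8.48 and 9.10 CPM in the HH mice (2.21, SE 0.41, adjusted p = 0.0168 in edgeR). Prc1, which bundles microtubules of the central spindle, was at 5.25, 6.55 and 2.34 CPM in the WT mice and at 14.5, 13.4 and 11.9 CPM in the HH mice (1.498, SE 0.30, adjusted p = 0.0232 in edgeR). Hmmr, a spindle assembly factor, was at 3.65, 3.41 and 0.625 CPM in the WT mice and at 11.7, 10.2 and 10.9 CPM in the HH mice (2.10, SE 0.45, adjusted p = 0.0311 in edgeR). In all 3 genes replicate 3 of the WT mice was the lowest and the HH mice stood well clear of the group. Kif11, the kinesin that parts the spindle poles, was at 4.85, 4.30 and 1.56 CPM in the WT mice and at 11.1, 8.81 and 11.7 CPM in the HH mice (1.56, SE 0.34, adjusted p = 0.0306 in edgeR). Kif20a, a kinesin of late mitosis, was at 3.55, 3.92 and 1.56 CPM in the WT mice and at 9.38, 7.47 and 7.37 CPM in the HH mice (1.43, SE 0.30, adjusted p = 0.0288 in edgeR). In both kinesins replicate 3 of the WT mice was again the lowest and every HH mouse was above every WT mouse. Nusap1 was called as well (1.72, SE 0.38, adjusted p = 0.0344 in edgeR), and the other 6 genes of this role were not called in edgeR, while DESeq2 called 9 of the 12.

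Of the 5 genes of chromosome structure, 2 were called, both of the condensin complex that compacts chromosomes. Ncapg was at 1.71, 1.74 and 0.547 CPM in the WT mice and at 3.94, 5.75 and 5.37 CPM in the HH mice (1.92, SE 0.38, adjusted p = 0.0232 in edgeR). Smc2 was at 6.80, 7.98 and 4.40 CPM in the WT mice and at 12.4, 11.8 and 14.3 CPM in the HH mice (1.01, SE 0.21, adjusted p = 0.0273 in edgeR). Mki67, the gene of the Ki67 proliferation marker, was at 21.4, 12.0 and 3.57 CPM in the WT mice and at 57.2, 32.1 and 38.7 CPM in the HH mice. Top2a, the topoisomerase that untangles sister DNA, was at 18.3, 24.9 and 5.18 CPM in the WT mice and at 48.6, 41.5 and 57.9 CPM in the HH mice. Both genes separated the groups without overlap and were not called in edgeR, Mki67 with a log2 fold change of 1.79 (SE 0.49, adjusted p = 0.0747 in edgeR) and Top2a with 1.62 (SE 0.45, adjusted p = 0.0766 in edgeR). DESeq2 called both, at adjusted p of 0.0402 for Mki67 and 0.0447 for Top2a. None of the 3 cytokinesis genes, Anln, Ect2 and Racgap1, was called in edgeR (0.82 to 1.57), and DESeq2 called all 3.

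**Figure D2:**
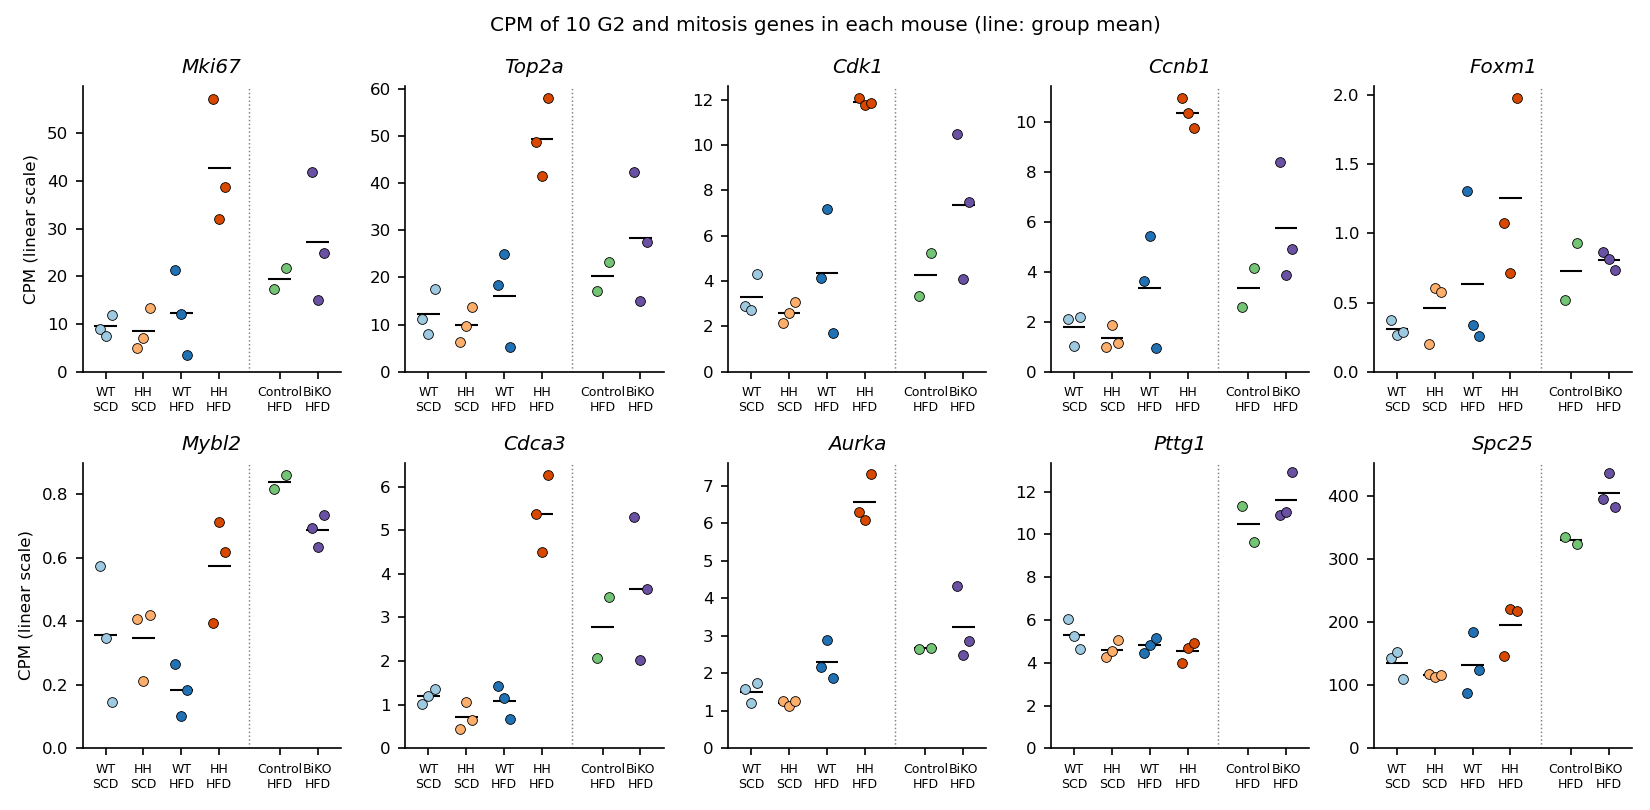
CPM on a linear scale (vertical axes) of 10 members in each of the 17 mice, 1 point per mouse with a line at the group mean, and a dotted line between the 2 tables, which were scaled separately. In Mki67, Top2a, Cdk1, Ccnb1, Cdca3 and Aurka the 3 HH mice on HFD lie above all other mice of their table, whereas Pttg1 is level and Spc25 overlaps.

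The 2 transcription factors were measured on few counts, 8 to 64 for Foxm1 and 3 to 26 for Mybl2 in a mouse. Foxm1 was at 1.31, 0.341 and 0.260 CPM in the WT mice and at 1.07, 0.713 and 1.97 CPM in the HH mice on HFD, with overlap (0.98, SE 0.64, adjusted p = 0.504 in edgeR). Mybl2 was at 0.267, 0.102 and 0.182 CPM in the WT mice and at 0.394, 0.713 and 0.617 CPM in the HH mice, without overlap (1.61, SE 0.66, adjusted p = 0.243 in edgeR). Neither was called in edgeR, in which the unadjusted p of Mybl2 was 0.0299, and DESeq2 gave no adjusted p for Mybl2.

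The number of calls on HFD changed on leaving out single libraries. Replicate 3 of the WT mice was the lowest of its group in 44 of the 50 genes (28.7% over all genes) and the lowest of all 12 mice in 26 (8.11%). Without it 5 members were called, all among the 14, with a median log2 fold change of 1.26. Leaving out replicate 1 of the WT mice gave 8 calls, and leaving out replicate 1, 2 or 3 of the HH mice gave 3, 2 and 2. Calls over all genes are not given for these fits, so the counts do not show whether the loss was particular to the members. The direction did not turn for any of the 10 called members with the lowest p in these fits. Acinar genes moved with the same groups: 20 of 20 were above 0 on the log2 scale with a median of 1.52, 5 were called higher, and the 3 HH mice on HFD had the 3 highest acinar sums of the table. With the mean acinar level of each mouse as a covariate, 0 members were called, 12 were higher at an unadjusted p below 0.05, 50 were above 0, Pttg1 included, and the median log2 fold change was 0.97. In that fit 0 of all 19137 genes were called.

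**Figure D3:**
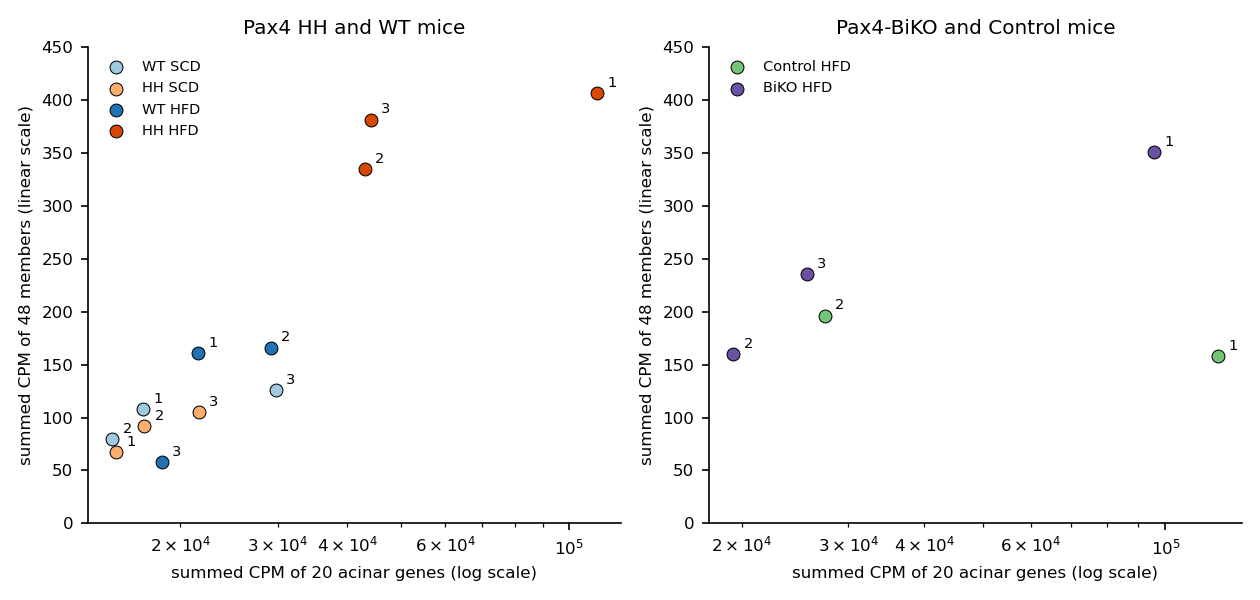
Summed CPM of 48 members (all but Spc25 and Hjurp, vertical axis, linear) against the summed CPM of 20 acinar genes (horizontal axis, log scale), 1 point per mouse labelled with its replicate number, in the first table (left) and the second (right). The 3 HH mice on HFD are highest on both axes at left. At right the Control mouse with the highest acinar sum, 122000 CPM, has the lowest member sum of the 5. Replicate 1 of the Pax4-BiKO mice has the next highest acinar sum, 95850 CPM, and the highest member sum. Replicate 2 of the Pax4-BiKO mice has the lowest acinar sum, 19380 CPM, and the member sum next above the lowest.

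Summed over 48 members, without the abundant Spc25 and Hjurp, the mice on SCD were at 108, 79.6 and 126 CPM (WT) and at 67.4, 91.8 and 105 CPM (HH). On HFD the WT mice were at 161, 166 and 57.8 CPM and the HH mice at 406, 334 and 381 CPM. In WT mice, replicates 1 and 2 on HFD were above all 3 SCD mice, and replicate 3 was below them. Among the HH mice the acinar sums of replicates 2 and 3 on HFD, 42960 and 44010 CPM, were far below the 112400 CPM of replicate 1, while their member sums were at 334 and 381 CPM against 406 CPM.

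The test of whether the genotype effect itself differed between diets called 1 member, Cdca3, against 0.0888% of all genes called in the same direction. The effect on HFD minus that on SCD was 3.04 for Cdca3 (SE 0.51, adjusted p = 0.0421 in edgeR). This difference was above 0 for all 50 members (49.2% over all genes), with a median of 1.87, and 41 were above 0 at an unadjusted p below 0.05 (6.84% over all genes). DESeq2 called 16, against 1.21% of all genes. Aurka had the next lowest p (1.81, SE 0.34, adjusted p = 0.0536 in edgeR). The call for Cdca3 was lost on leaving out any single mouse but replicate 2 of the WT mice on SCD or replicate 2 of the WT mice on HFD, without which 2 and 5 members were called. Genes of other cells moved in the same direction. The same difference was above 0 for 20 of 20 acinar genes (median 1.72), for 7 of 7 B cell genes (median 7.25), for 12 of 12 macrophage genes (median 0.64), for 10 of 10 stromal genes (median 0.84), for 5 of 5 erythroid genes (median 1.62), for 4 of 4 T cell genes (median 1.01) and for 3 of 3 germinal centre B cell genes (median 0.22). None of these genes was called in edgeR, in which 18 acinar, 5 B cell, 3 macrophage, 2 erythroid and 1 T cell genes were above 0 at an unadjusted p below 0.05, and DESeq2 called 2 acinar, 2 B cell and 1 macrophage genes. With the acinar level as a covariate 0 members were called, 48 were above 0, 11 were above 0 at an unadjusted p below 0.05 and the median was 1.21. With the B cell or the macrophage level as a covariate 0 were called, and the part of these cells was not tested further. The shares over all genes in these fits with a covariate are not given, so their counts do not show a change particular to the members.

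The comparison of diets within each genotype uses the same 12 mice as the tests above. In WT mice, HFD against SCD called 0 of 50 members, against 0.371% of all genes, and DESeq2 called 0, against 3.03%. The log2 fold change was above 0 for 41 members (51.1% over all genes) with a median of 0.32, and 2 were higher at an unadjusted p below 0.05 (6.86% over all genes). Aurka (0.61, SE 0.24, unadjusted p = 0.0227), Bub1b (0.77, SE 0.33, unadjusted p = 0.0358) and Kif4 (1.03, SE 0.48, unadjusted p = 0.052) had the lowest p in edgeR, at adjusted p of 0.246, 0.29 and 0.334. Without replicate 3 the median log2 fold change was 0.73, 17 members were higher at an unadjusted p below 0.05, and still 0 were called. Without replicate 1 or replicate 2 of the WT mice on HFD the median was 0.02 and 0.08, with 26 members above 0 in each. Some genes of other cells went the other way, with 1 of 12 macrophage genes above 0 (median -0.77, 1 called lower), 1 of 10 stromal (median -1.69) and 0 of 7 B cell genes (median -3.62). Acinar genes were above 0 in 15 of 20 (median 0.15) and β cell genes in 8 of 10 (median 0.305), in the direction of the members. None of these was called in edgeR, and DESeq2 called 2 β cell genes higher. The median of the members was 0.13 without replicate 2 of the WT mice on SCD and 0.10 with the macrophage level as a covariate.

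In HH mice, HFD against SCD called 47 of 50 members higher, against 9.75% of all genes, and DESeq2 called the same number, against 10.6%. The groups did not overlap for 48 members (21.3% over all genes), the log2 fold change was above 0 for 49 (46.4% over all genes), and its median was 2.27. All 9 mitotic kinase genes, all 10 centromere and kinetochore genes, all 12 kinesin and spindle genes, all 5 of chromosome structure, all 3 of cytokinesis and 8 of 9 among the cyclins and APC/C genes were called. The 3 that were not were Pttg1 (-0.02, SE 0.18), Foxm1 (1.46, SE 0.66) and Mybl2 (0.73, SE 0.64), with adjusted p of 0.942, 0.142 and 0.457 in edgeR.

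Ccnb1 rose from 0.992, 1.90 and 1.15 CPM on SCD to 10.9, 10.4 and 9.78 CPM on HFD in HH mice, a log2 fold change of 2.94 (SE 0.50, adjusted p = 0.00202 in edgeR). Aurka rose from 1.27, 1.13 and 1.26 CPM to 6.30, 6.08 and 7.31 CPM (2.42, SE 0.24, adjusted p = 0.000109 in edgeR). Cdca3 rose from 0.432, 1.05 and 0.649 CPM to 5.37, 4.49 and 6.26 CPM (2.91, SE 0.37, adjusted p = 0.000369 in edgeR). In none of these did a mouse on one diet reach the range of the other. Mki67 rose from 5.06, 7.11 and 13.3 CPM to 57.2, 32.1 and 38.7 CPM (2.34, SE 0.50, adjusted p = 0.00721 in edgeR). Top2a rose from 6.38, 9.63 and 13.7 CPM to 48.6, 41.5 and 57.9 CPM (2.33, SE 0.46, adjusted p = 0.00467 in edgeR), and Cdk1 from 2.13, 2.58 and 3.09 CPM to 12.1, 11.8 and 11.9 CPM (2.20, SE 0.38, adjusted p = 0.00226 in edgeR). The other genes among the 10 of lowest p rose by 2.20 to 2.95 on the log2 scale. Of these, Prc1 was at 2.08, 2.79 and 3.05 CPM on SCD and Knstrn at 1.22, 1.55 and 1.56 CPM, with their levels on HFD as given above. Kif20a was at 1.37, 1.79 and 2.14 CPM on SCD and Tpx2 at 1.02, 1.47 and 1.91 CPM. Nek2 was at 0.788, 1.63 and 0.878 CPM on SCD and Hmmr at 1.12, 1.82 and 1.99 CPM. Nusap1, a protein of spindle microtubules, went from 1.48, 1.24 and 1.64 CPM on SCD to 8.48, 6.001 and 7.65 CPM on HFD. In all 7 the highest mouse on SCD was below the lowest on HFD. Acinar genes rose in the same comparison, with 19 of 20 called, and with the acinar level as a covariate 0 members were called, 23 were higher at an unadjusted p below 0.05 and the median was 1.45. B cell genes were above 0 in 7 of 7 (median 2.88), with 2 called higher, Ms4a1 and Ighm, and erythroid genes in 5 of 5 (median 1.64), with 1 called higher, while duct genes gave 3 of 10 called higher and 1 lower. With the B cell level as a covariate 46 members were called. The shares over all genes in the fits with a covariate are not given for this comparison.

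**Figure D4:**
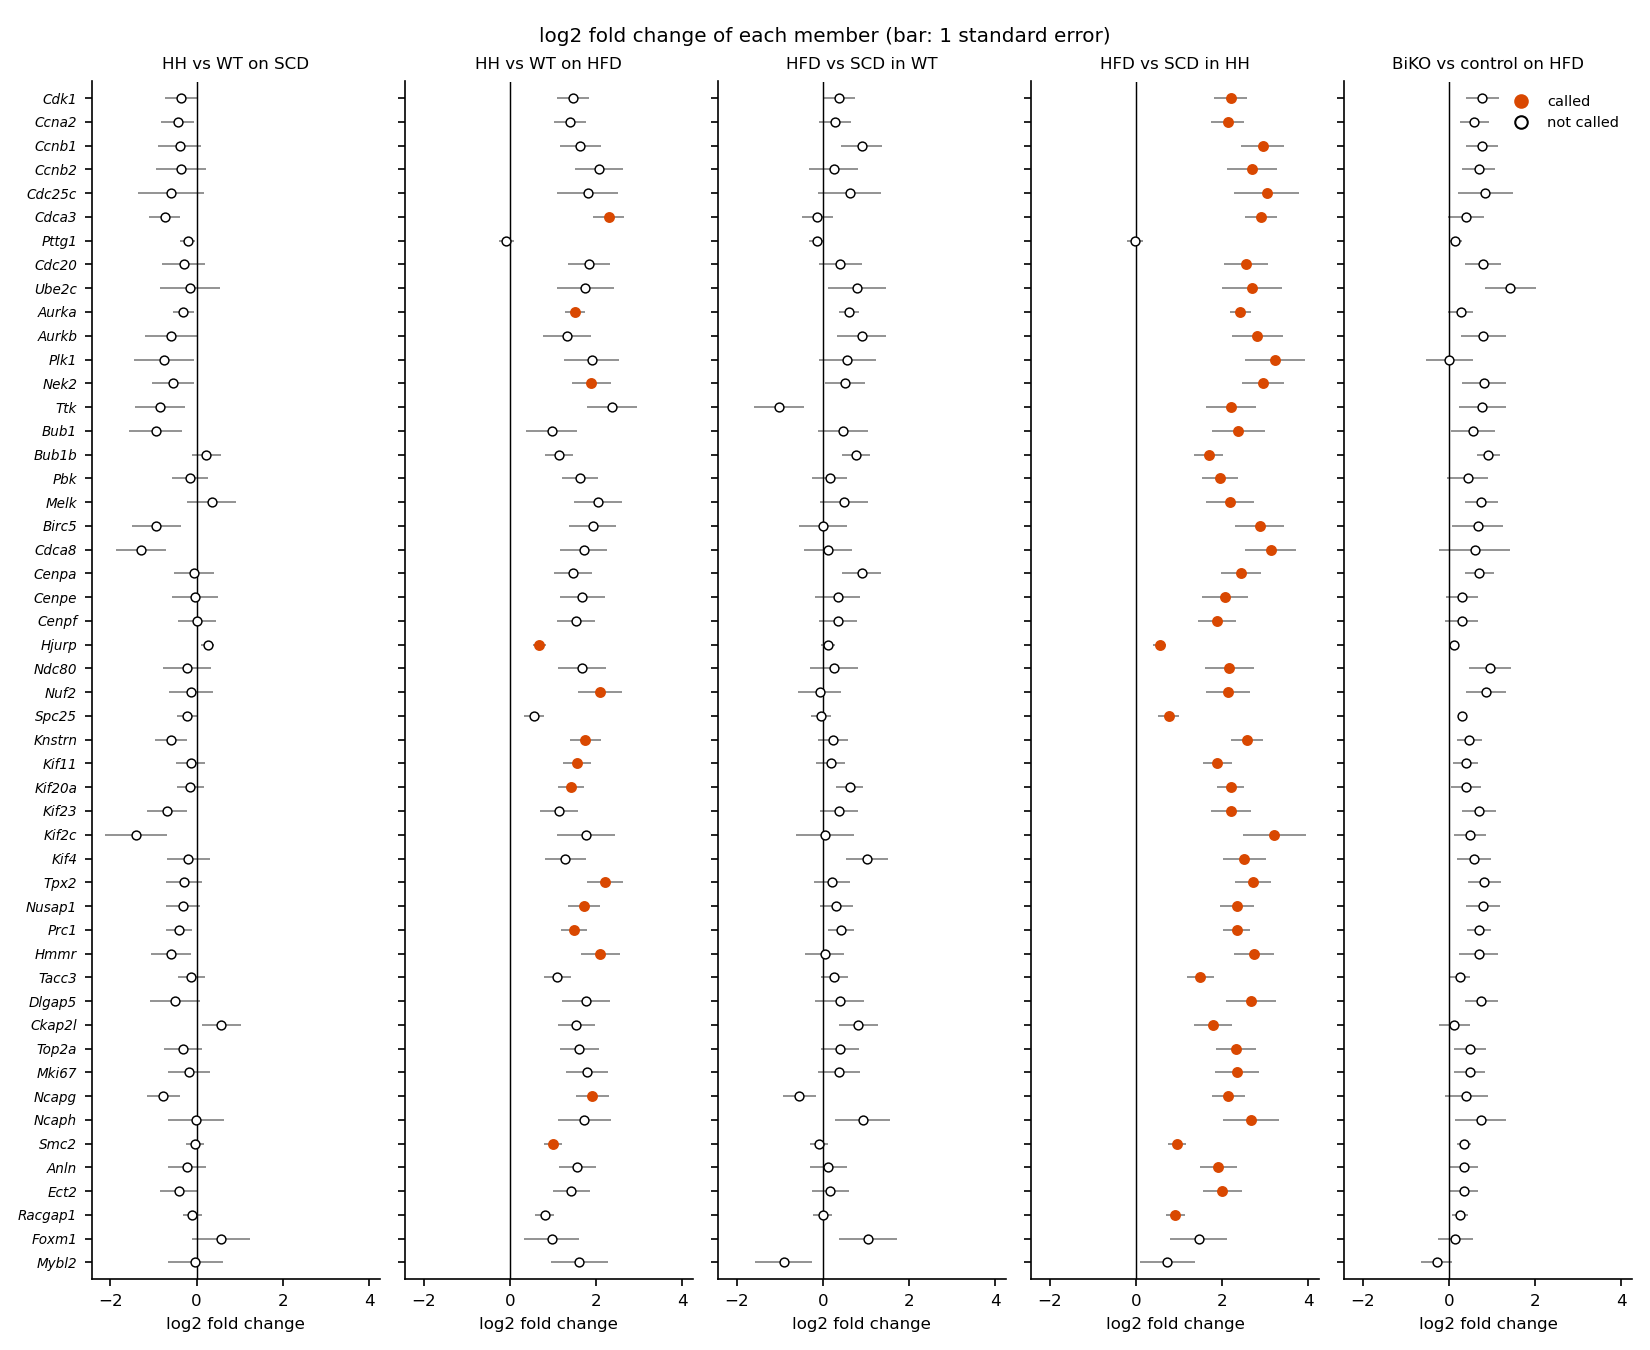
log2 fold change (horizontal axes) of each of the 50 members (vertical axis) in 5 comparisons, with bars of 1 standard error, filled where the member was called. Filled points number 0, 14, 0, 47 and 0 from left to right, and Pttg1 lies near 0 in every panel.

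In the second table, Pax4-BiKO against Control on HFD called 0 of 50 members, against 0.0893% of all 20167 genes. DESeq2 called 0, against 1.20%, but gave no adjusted p for 36 of the 50, which it set aside for low counts. The log2 fold change was above 0 for 49 members (51.5% over all genes), with a median of 0.56 (0.011 over all genes), and 4 were higher at an unadjusted p below 0.05 (6.23% over all genes). The groups did not overlap for 7 members that were higher (15.9% over all genes) and for 1 that was lower (16.7%), Mybl2. The members of lowest p were Bub1b, which encodes the checkpoint protein BUBR1 (0.91, SE 0.27, unadjusted p = 0.00972, adjusted p = 0.274 in edgeR), Spc25 (0.30, SE 0.10, unadjusted p = 0.0148, adjusted p = 0.29 in edgeR) and Prc1 (0.70, SE 0.27, unadjusted p = 0.034, adjusted p = 0.349 in edgeR). Bub1b was at 2.01 and 2.39 CPM in the Control mice and at 4.44, 3.11 and 4.87 CPM in the Pax4-BiKO mice, without overlap.

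The 3 Pax4-BiKO mice were spread widely. Mki67 was at 17.4 and 21.7 CPM in the Control mice and at 42.0, 15.0 and 24.9 CPM in the Pax4-BiKO mice (0.48, SE 0.37, adjusted p = 0.626 in edgeR). Top2a was at 17.1 and 23.4 CPM against 42.3, 15.0 and 27.6 CPM (0.48, SE 0.37, adjusted p = 0.629 in edgeR). In both, replicate 1 was the highest and replicate 2 the lowest of the 5 mice. Cdk1 was at 3.35 and 5.24 CPM against 10.5, 4.11 and 7.48 CPM (0.77, SE 0.39, adjusted p = 0.448 in edgeR), and Ccnb1 at 2.60 and 4.14 CPM against 8.42, 3.87 and 4.93 CPM (0.76, SE 0.37, adjusted p = 0.431 in edgeR). Foxm1 was at 0.520 and 0.928 CPM against 0.867, 0.816 and 0.736 CPM (0.15, SE 0.41), and Mybl2 at 0.818 and 0.862 CPM against 0.693, 0.635 and 0.736 CPM (-0.29, SE 0.36), with adjusted p of 0.907 and 0.774 in edgeR.

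Replicate 1 of the Pax4-BiKO mice was the highest of the 5 mice in 43 of the 50 genes (17.8% over all genes) and above both Control mice in 47 (34.2%). Replicate 3 was above both Control mice in 41 (41.2% over all genes), and replicate 2 was at or below the higher Control mouse in 42 (64.7%). Summed over the 48 members the Control mice were at 158 and 196 CPM and the Pax4-BiKO mice at 351, 160 and 236 CPM. The acinar sums of the same mice were 122000 and 27430 CPM and 95850, 19380 and 25630 CPM. The median log2 fold change of the 20 acinar genes was -0.68, opposite in sign to that of the members. B cell genes summed to 124 CPM in replicate 3 of the Pax4-BiKO mice and to 4.75 to 45.8 CPM in the other 4, and 0 members were called with the B cell level as a covariate. Endothelial genes were above 0 in 10 of 10 (median 0.29), macrophage genes in 10 of 12 (median 0.25), B cell genes in 6 of 7 (median 3.12), T cell genes in 5 of 5 (median 1.01) and erythroid genes in 5 of 5 (median 0.67), with 0 called. The median log2 fold change of the members moved with single mice. It was 0.17 with 43 members above 0 without replicate 1 of the Pax4-BiKO mice and 0.83 without replicate 2, and it was 0.34 without replicate 1 of the Control mice and 0.79 without replicate 2. With the endothelial level as a covariate it was 1.24, and 36 members were higher at an unadjusted p below 0.05. In each of these fits 0 members were called.

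Other lists of the cell cycle were read beside the members, with the same calls. On HFD, HH against WT, 7 of 69 other tested mitosis genes were called higher and 0 lower (median log2 fold change 1.19), led by Kntc1, Ncapg2 and Cks2 (1.26, 1.19 and 2.07). Of 50 S phase genes, which serve DNA replication, 11 were called higher and 0 lower (median 0.99), led by Cdc45, Mcm5 and Mcm2 (1.62, 1.67 and 0.98). Subunits of the APC/C and checkpoint genes that are present throughout the cycle gave 0 of 19 (median 0.14), and the DREAM and MMB complexes, which hold these promoters silent or active, gave 0 of 20 (median 0.14). DESeq2 called 24 of the 69, 31 of the 50, 0 of the 19 and 0 of the 20, all higher. In HH mice, HFD against SCD called 38 of 69 other mitosis genes (median 1.61), 32 of 50 S phase genes (median 1.05), 3 of 19 APC/C and checkpoint genes, with Ube2s at 1.22, and 3 of 20 DREAM and MMB genes, with Lin37 at 1.15 and Tfdp1 at 0.50 higher and Rb1 at -0.75 lower. All but Rb1 of the genes called here were higher, against shares over all genes of 9.75% for higher calls and 5.91% for lower ones. In Pax4-BiKO against Control, 0 genes of these 4 lists were called, with medians of 0.36, 0.28, 0.05 and 0.03 in the same order of lists as for HH against WT.

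**Figure D5:**
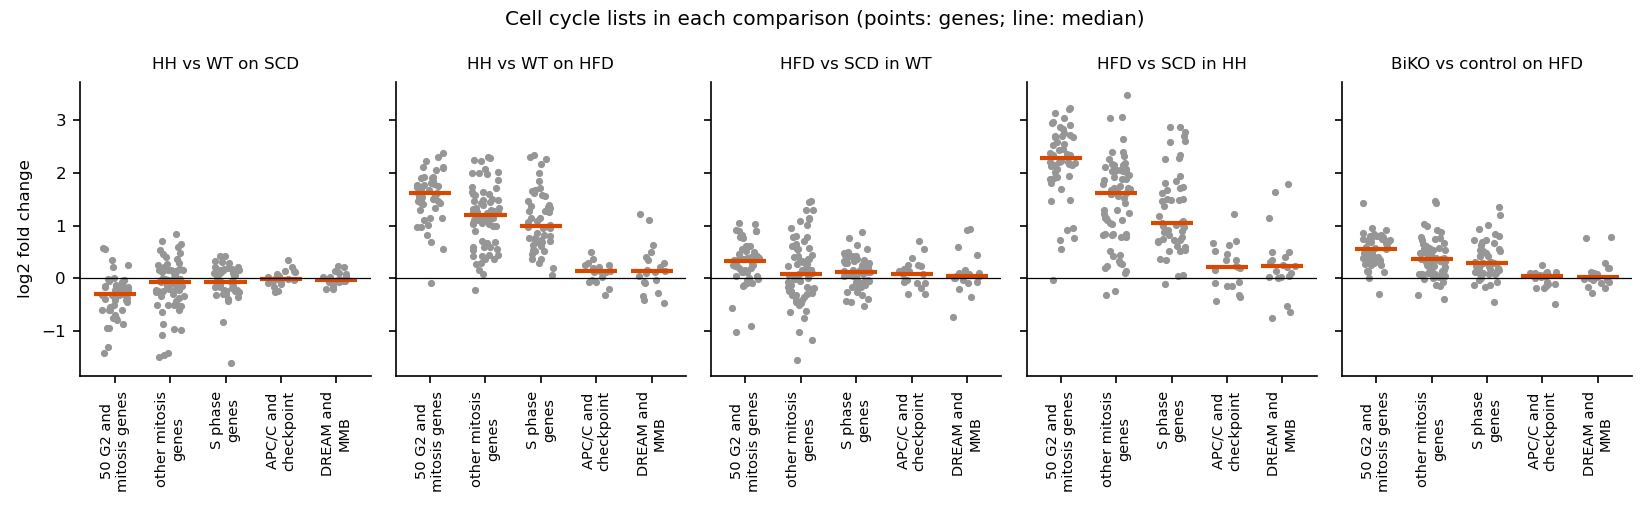
log2 fold change (vertical axis) of each tested gene (points) in 5 cell cycle lists (horizontal axis) for 5 comparisons, with a line at the median of the list. For HH against WT on HFD the medians are 1.62, 1.19, 0.99, 0.14 and 0.14 from left to right.

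Of lists for other cells, HH against WT on HFD called 0 of 7 B cell, 0 of 12 macrophage, 0 of 10 endothelial and 0 of 10 stromal genes. It also called 0 of 4 T cell, 0 of 3 germinal centre B cell, 0 of 5 erythroid, 0 of 5 intestinal and 0 of 5 δ and PP cell genes. B cell genes were above 0 in 5 of 7 (median 2.05), with 2 higher and 0 lower at an unadjusted p below 0.05 in edgeR. Intestinal genes were above 0 in 4 of 5 (median 3.81), with 2 higher and 1 lower at that threshold. Over all genes 8.91% were higher and 6.98% lower by this rule. Erythroid genes were above 0 in 5 of 5 (median 0.33) and stromal genes in 9 of 10 (median 0.26). Duct genes gave 1 call of 10, Krt18 (0.63, SE 0.15, adjusted p = 0.0414 in edgeR), with 8 above 0, 6 higher at an unadjusted p below 0.05 and a median of 0.46. Their sum was 253, 289 and 294 CPM in the WT mice and 416, 421 and 410 CPM in the HH mice, so that it separated the groups as the members did, and its part in the results for the members was not tested. Of 10 β cell genes 2 were called lower, Slc2a2 (-1.28) and Slc30a8 (-0.61), while 4 of the 10 were above 0, 1 of them at an unadjusted p below 0.05 (Iapp, 0.499), and the median was -0.39. The sum of the 10 was 65470, 91570 and 93850 CPM in the WT mice and 99290, 110500 and 99620 CPM in the HH mice, higher in every HH mouse. Of 8 α cell genes 2 were called higher, Ttr (1.16) and Gc (1.52), while 4 of the 8 were above 0, the median was -0.005 and DESeq2 called 2 higher and 1 lower. It also called 5 of the 10 β cell genes lower, 18 of 20 acinar and 3 of 10 duct genes higher and 1 of 5 intestinal genes lower, and 0 genes of the other 8 lists. B cell genes summed to 28.6 CPM in replicate 1 of the HH mice on HFD and to 1.68 and 2.41 CPM in replicates 2 and 3, in which the member sums were as given above. In which cells the members were transcribed was not measured in these bulk libraries.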

How the data were processed

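Per the labels, islet RNA was extracted with TRIzol and libraries were made with a stranded total RNA kit. The authors aligned reads to mm10 with STAR 2.7.1 and estimated expression with RSEM 1.3.3. The deposited values are expected counts for each gene without scaling for depth. Whether the estimation used strand was not given in the sources used here, and 17 members overlap an exon of another gene. Among those called for HH against WT on HFD, these include Kif20a (1271 bases), Ncapg (944), Prc1 (911), Nek2 (298), Nusap1 (172) and Knstrn (123), each with a gene on the opposite strand. Here the deposited values were rounded to integers and each table was fitted on its own with edgeR 4.0.16 (R 4.3.3): TMM, filterByExpr with a minimum count of 10, 1 coefficient per group, the quasi-likelihood F-test and Benjamini-Hochberg adjustment over all tested genes. DESeq2 1.42.0 was an alternative. Positions came from GENCODE M21 on GRCm38. The code was tested on simulated data.

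Groups came from the sample labels, and each sample is called a biological replicate there. Replicate numbers did not pair the mice: correlations of same-numbered deviations ran from -0.30 to 0.19. No replicate pair agreed within sampling noise (chi-square per degree of freedom of 10.1 to 133).

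The members and lists were chosen with earlier results of these data known. Named with values in every mouse were Mki67, Top2a, Cdk1, Ccnb1, Foxm1, Mybl2 and up to 10 called members per comparison by p. Where none was called, the 3 of lowest p were named with their p. In other lists up to 3 called genes were named. Alternatives were RLE size factors, no filter, no fold threshold, no top 2 genes, the replicate block, marker covariates, models of 2 groups and leaving out each mouse. B cell and endothelial covariates were added after seeing the data. Precision was limited by the counts given for the members, and such limits speak of counting error alone, because PCR copies were not removed by identifiers.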

Additional observations from a re-analysis of the deposited data

Results flagged for a closer look

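Cdca3 was singled out because its genotype effect differed between diets by a test of the difference itself. The effect of HH against WT on HFD minus that on SCD was 3.04 on the log2 scale (SE 0.51, adjusted p = 0.0421 in edgeR's quasi-likelihood test, 3 mice in each of 4 groups). The HH mice were all above the WT mice on HFD, and on SCD the log2 fold change was -0.74. Over 22 alternatives this value ran from 2.78 to 3.53, the adjusted p ran from 1.31e-05 to 0.609, and the call was kept in 8 and lost in 14.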

How the results depend on the processing

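The 10 called members of lowest p on HFD, the 10 of lowest p in HH mice across diets and Cdca3 in the interaction kept their direction under every alternative run, while with the acinar covariate the members above 0 went from 50 to 48 in the interaction, from 49 to 50 for HH against WT on HFD and from 6 to 10 on SCD. Members called for HH against WT on SCD and for HFD against SCD in WT mice were 0 under all 17 alternatives each. For HH against WT on HFD (14 called), DESeq2 called 37, no filter on low counts 40, the endothelial covariate 23, a model of only the 2 groups 5, the replicate block 2 and the acinar covariate 0, and leaving out 1 mouse gave 2 to 16. For the interaction (1 called), DESeq2 called 16, no filter 31, the endothelial covariate 4, and the replicate block and the acinar, macrophage and B cell covariates 0, and leaving out 1 mouse gave 0 to 5. For HFD against SCD in HH mice (47 called), the acinar covariate gave 0 and the other 16 alternatives 38 to 47. For Pax4-BiKO against Control (0 called), no filter gave 2 and the other 14 alternatives 0. Shares over all genes are given above for DESeq2, and for the acinar covariate in HH against WT on HFD. For the other alternatives they are not given, so those counts do not show whether a change was particular to the members. Whether replicate numbers pair the mice is not known, and the replicate block changed no other count by over 1.5 times, with 47 calls in HH mice across diets. The causes of these changes were not tested. Fewer mice were fitted when 1 was left out, and a group of 2 was then fitted with the spread shared over all groups. The acinar level moved with genotype on HFD, so that the covariate and the genotype overlap. Counts of 3 or fewer in at least 1 mouse limit Aurkb, Cdc25c, Cdca8, Kif2c, Mybl2, Plk1 and Ttk.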
